A study of Homo sapiens with 7 samples.

Results

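Rb peaks were examined at 45 oestrogen-response and luminal keratin genes, out of 19970 protein-coding genes on chromosomes 1 to 22 and X. The members were named from knowledge of the oestrogen programme of luminal breast cancer and were not selected by peak height. Earlier results of these data were known when they were named. They include the trefoil peptides TFF1 and TFF3, the receptor cofactor GREB1 and 4 keratin genes (KRT8, KRT18, KRT19 and KRT13). A peak was assigned to a member as a promoter peak when it overlapped a window that ran from 2000 bp before to 500 bp after any of its annotated transcription start sites (TSSs). It was assigned as a distal peak when it overlapped no promoter of any gene and the protein-coding TSS nearest to its summit belonged to the member.

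The peaks came from CUT&RUN, in which an antibody tethers a nuclease to a chromatin protein and the DNA cut free around it is sequenced. The 7 libraries all came from ZR-75-1, an established line of oestrogen receptor-positive breast cancer, and each culture received DMSO or 500 nM palbociclib, a CDK4/6 inhibitor, for 4 days. Rb antibody libraries were made from parental cells with DMSO (n = 2), parental cells with palbociclib (n = 2), RB1 knockout (RB1 KO) cells with DMSO (n = 1) and RB1 KO cells with palbociclib (n = 1). An IgG2a antibody library from parental cells with palbociclib (n = 1) gave the background of a non-targeting antibody. Knockout lines were grown from single sorted cells, so the RB1 KO lists may stand for 1 clone.

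Oestrogen receptor α binds DNA at oestrogen response elements (EREs), inverted repeats of a short sequence, and most of its sites in luminal cells lie in enhancers away from promoters. Luminal keratins form the intermediate filaments of the secretory epithelial layer of the breast. Rb is recruited to DNA by other proteins, classically by E2F factors at promoters of cell cycle genes, and phosphorylation by CDK4 and CDK6 weakens that binding. The comparison of palbociclib with DMSO therefore asks which of the members carried Rb once these kinases were inhibited.

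The DMSO lists held 922 and 753 peaks on chromosomes 1 to 22 and X, the palbociclib lists 8314 and 8171, the RB1 KO lists 4 and 5, and the IgG2a list 1724. The deposited lists hold called peaks only, so a gene without a call has no value and may have carried Rb below the threshold. Fold enrichment is the authors' ratio of fragments at the summit to local background, with 1 added to each. The fragments at the summit were recovered as whole numbers from the fold and its p-value. The weakest calls had 6 fragments in each DMSO list and 5 in each palbociclib list. Among called peaks, the lowest background was 0.571 in DMSO replicate 1 and 0.465 in DMSO replicate 2. For palbociclib replicates 1 and 2 it was 0.516 and 0.549. These ranges overlapped, but a minimum over called peaks is no measure of library depth. Without read totals, whether depth differed between the treatments was not tested.

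No member had a Rb peak of either class in either DMSO list. Across all protein-coding genes, 2.82% had a promoter peak in both DMSO lists and 6.88% had a promoter or distal peak in at least 1. With palbociclib, 14 of the 45 members had a promoter peak called in both lists with overlapping coordinates (31.1%), beside 34.5% of all protein-coding genes. At these calls the share of members was near that background. At a fold of at least 5 it was 15.6%, beside 27.0% of all genes, and at a −log10 q of at least 5 it was 15.6%, beside 26.8%. With only the start of each gene's reference transcript it was 24.4%, beside 30.8%. Members also had more promoter sequence in which a peak could fall. The median was 9272 bp for members with such a peak and 8600 bp for those without. For all protein-coding genes it was 7588.5 and 5053 bp. None of these differences was tested. A promoter peak in at least 1 palbociclib list was found at 22 members (48.9%), beside 43.7% of all genes. A promoter peak in exactly 1 of the lists was found at 8 members (17.8%), beside 8.82% of all genes. Distal peaks in both palbociclib lists were assigned to 2 members, KRT8 and TJP3 (4.44%), beside 1.46% of all genes. The remaining 21 members had no peak in either palbociclib list.

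**Figure D1:**
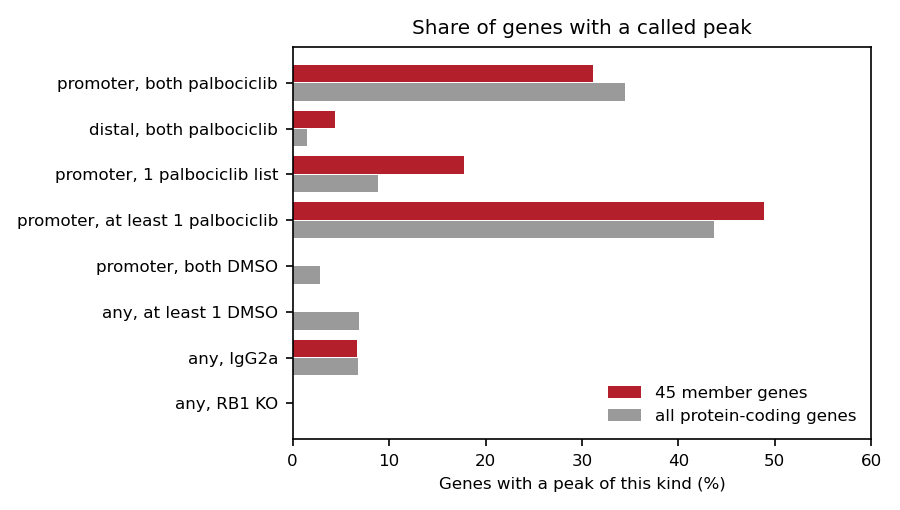
Share of genes (%) with a called peak of each kind, for the 45 members (red bars) and all 19970 protein-coding genes (grey bars). For promoter peaks in both palbociclib lists the bars stand at 31.1% and 34.5%, and the members have no bar for DMSO or RB1 KO.

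Neither RB1 KO list had a peak at a member, beside 0.0401% of all genes, and with 4 and 5 peaks these lists left little to compare. The IgG2a list had a peak assigned to 3 members (6.67%), beside 6.81% of all genes. All of these were distal. The IgG2a peak of AGR3, a protein disulphide isomerase family member, lay at -61129 bp from its start site, that of the co-chaperone FKBP4 at -74307 bp, and that of the adenylyl cyclase ADCY9 at 24557 bp inside an intron. Their folds were 4.33, 6.05 and 3.94. No IgG2a peak lay at a member's promoter, and none of the 16 member peaks called in both palbociclib lists overlapped a peak of the IgG2a, RB1 KO or DMSO lists. An IgG control entered the calling of the Rb peaks, so some of this separation is built into the lists.

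MYB, a transcription factor first known as an oncogene of blood cells, had the highest promoter peak among the members by mean fold. Its fold was 12.2 in palbociclib replicate 1 and 15.4 in replicate 2, from 22 and 29 fragments. The summit fell on the same base in both lists, at -115 bp from the start site, in a peak spanning chr6:135180841-135181653 (hg38). The mean fold of this peak was above that of 79.8% of the 6336 promoter peaks shared by both palbociclib lists. At the background found there, a call in the DMSO lists would have needed 7 or 8 fragments, and no DMSO peak lay within 316.525 kb of the start site. The 201 bases around the summit, on the gene's strand at chr6:135181093-135181293, are shown because this peak had the highest mean fold among the members.
MYB: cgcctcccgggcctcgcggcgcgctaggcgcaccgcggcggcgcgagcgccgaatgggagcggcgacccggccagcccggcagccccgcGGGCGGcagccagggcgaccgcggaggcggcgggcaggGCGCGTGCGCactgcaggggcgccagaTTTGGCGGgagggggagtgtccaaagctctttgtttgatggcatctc
Capitals mark, in order, the SP/KLF letters GGGCGG, a match to the NRF1 motif (GCGCA, any base, then GCGC, here on the opposite strand) and TTTGGCGG, a variant of the E2F motif.

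The E2F motif was searched on both strands as TTTCCCGC, TTTCGCGC, TTTGCCGC and TTTGGCGC. None of the 14 member promoters held any of these within 100 bp of the summit, beside 5.79% of all 6336 promoter peaks. The same 4 forms with G in place of the last C were added after the sequence of MYB had been seen. They were present at 2 member promoters, MYB and AREG, and at 3.87% of all promoter peaks. The letters GGGCGG were found at 10 of 14 member promoters, beside 70.6% of all promoter peaks, and CCAAT, the box bound by NF-Y, at 6 of 14, beside 1648 of the 6336. The NRF1 motif was found at 2 of 14, MYB among them, beside 7.13%. A match is a description of the letters and not evidence of a bound factor. The absence of a match does not exclude other forms of a motif.

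The other transcriptional regulators had lower folds than MYB in both lists, and RARA varied more between replicates. RARA, the retinoic acid receptor α, had a fold of 8.32 from 19 fragments in replicate 1 and 4.63 from 8 fragments in replicate 2, and the summits were 486 bp apart. They lay in an intron at 7645 and 8131 bp from the start site of the MANE Select transcript, the reference transcript of the gene, and at -1456 and -970 bp from the nearest annotated start. ELF3, an ETS factor of epithelial cells, had the lowest mean fold of the 14, at 3.79 and 4.30 from 14 and 17 fragments. ELF3 shares its promoter with the antisense gene ELF3-AS1 and with a non-coding gene without a symbol. NRIP1, a corepressor of nuclear receptors, had a peak in replicate 1 only, at 4 bp from its start site, with a fold of 4.24 from 7 fragments. GREB1, a cofactor of the oestrogen receptor, had no Rb peak, and its nearest peak in both palbociclib lists lay 67.774 kb away at the promoter of E2F6.

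Among the metabolic enzymes and carriers, UGCG had the highest folds, and its mean fold came after that of MYB among the 14. It encodes ceramide glucosyltransferase, the first step of glycosphingolipid synthesis. Its fold was 12.2 in replicate 1 and 10.3 in replicate 2, from 23 and 20 fragments, with summits at 107 and -21 bp from the start site. ABAT, which breaks down the neurotransmitter GABA, had folds of 4.08 and 5.45 from 9 and 13 fragments. SLC7A5, a carrier of large neutral amino acids, had folds of 5.48 and 5.13 from 15 and 13 fragments, with both summits in a coding exon. UGCG stood above ABAT and SLC7A5 in both lists, and the values of the latter pair overlapped. SLC39A6, a zinc carrier long known as the oestrogen-regulated gene LIV-1, had folds of 4.09 and 4.22 from 11 and 12 fragments. Its peak also fell in the promoter of ELP2, a subunit of the Elongator complex, and in that of a non-coding gene without a symbol. It cannot be assigned to any of these genes alone. SLC2A1, the glucose carrier GLUT1, had a peak in replicate 1 only, with a fold of 4.34.

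Of the signalling genes, AREG varied most between replicates. AREG encodes amphiregulin, a ligand of the epidermal growth factor receptor. Its fold was 8.56 from 20 fragments in replicate 1 and 3.57 from 10 fragments in replicate 2. A ratio this high in favour of replicate 1 was found at 0.268% of all promoter peaks shared by the lists. The −log10 p of the replicate 2 peak was 4.92, below the weakest call in either DMSO list, 5.23 and 5.33. FKBP4, a co-chaperone of steroid receptors with Hsp90, had folds of 7.32 and 4.72 from 22 and 16 fragments, with summits at -35 and 30 bp. The FKBP4 peak also overlapped promoter windows of ITFG2-AS1 and CBX3P4. TOB1, an antiproliferative protein that recruits mRNA deadenylases, had folds of 6.18 and 5.02 from 23 and 19 fragments, at -142 and -105 bp. Its window overlaps that of TOB1-AS1, and a second TOB1 peak was called in replicate 2 only, at -1487 bp with a fold of 4.86.

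The remaining signalling genes were called in a single list. SIAH2, a ubiquitin ligase, had a pair of peaks in replicate 2, with folds of 3.57 and 4.90. ADCY9 had a fold of 4.00 in replicate 2, at -4 bp. RET, a receptor tyrosine kinase, had a fold of 4.48 and CISH, a suppressor of cytokine signalling, a fold of 5.50, both in replicate 1. The CISH peak also lay in the promoter of MAPKAPK3. With WFS1, a protein of the endoplasmic reticulum membrane (fold 5.71), and the matrix protein THSD4 (4.77), the 8 single-list members had 9 promoter peaks, with folds from 3.57 to 5.71 and 7 to 14 fragments.

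MAPT, which encodes the microtubule-binding protein tau, had the closest replicates of the 14. Its fold was 7.32 in replicate 1 and 7.23 in replicate 2, from 22 and 21 fragments. The summits lay at -83 and -132 bp from the start site. The peak also overlapped the promoter window of the non-coding gene MAPT-IT1.

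OLFM1, TPBG and SVIL completed the list, and at OLFM1 and SVIL the peak was not at the reference start. OLFM1, a secreted glycoprotein of the olfactomedin family, had folds of 9.35 and 10.0 from 27 and 31 fragments, the most fragments of any member. Its summits lay at -29 and -86 bp from the nearest annotated start, but at -12275 and -12332 bp from the MANE Select start. SVIL, the actin-binding protein supervillin, had folds of 6.10 and 4.41 from 11 and 8 fragments, at -22 and 228 bp from the nearest start and -100855 and -100605 bp from the MANE Select start. With RARA, these made 3 members whose Rb peak lay over 5000 bp from the MANE Select start. When only that start was used, 11 members remained (24.4%), beside 30.8% of all protein-coding genes. TPBG, the trophoblast glycoprotein 5T4, had folds of 5.59 and 6.69 from 10 and 12 fragments, at 750 and 655 bp downstream of its MANE Select start. The TPBG peak also overlapped the promoter window of a non-coding gene without a symbol.

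**Figure D2:**
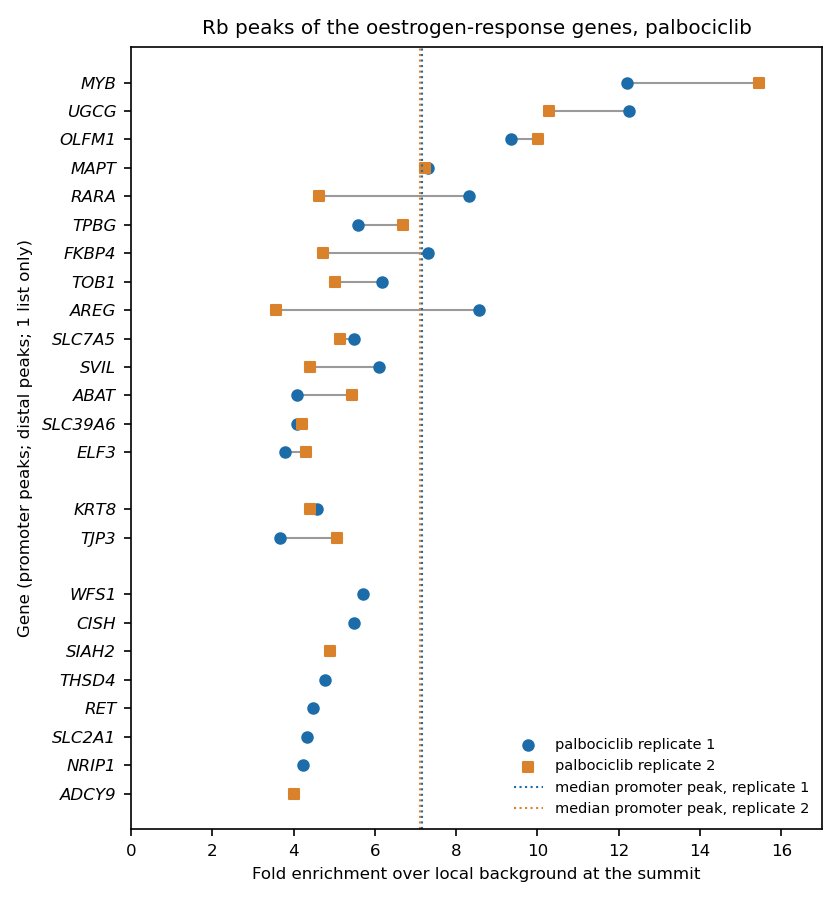
Fold enrichment at the summit (x axis, linear) of each member with a peak in the palbociclib lists, as a circle for replicate 1 and a square for replicate 2; genes are grouped as promoter peaks in both lists, distal peaks in both lists, and promoter peaks in 1 list. Dotted lines give the median promoter peak of each list (7.15 in replicate 1, with replicate 2 almost on it), and MYB, UGCG, OLFM1 and, by a small margin, MAPT lie to the right of these in both replicates. For SIAH2 the higher of its peaks is drawn.

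By fold, the 14 member peaks were lower than promoter peaks in general. The median of the mean fold over both lists was 5.72 for members and 7.97 for all 6336 promoter peaks, whose upper quartile was 12.3. MYB alone lay above the upper quartile, MYB, UGCG and OLFM1 lay above the median, and 7 members lay below the lower quartile. By fragments at the summit the medians were 19.5 for members and 20 for all in replicate 1, and 14.5 and 20 in replicate 2, so the lists differed in this. The SD of the log2 ratio of replicate 1 to replicate 2 was 0.42 for all promoter peaks and 0.48 for the member peaks. Of the 14, 13 had at least as many fragments in each palbociclib list as a DMSO call would have needed at that list's background. The exception was AREG, with 10 fragments in replicate 2 where 11 were needed. In 1 list, RARA, SVIL (8 each), ABAT (9) and SLC39A6 (11) only equalled the number needed. The 14 were picked by their calls in both palbociclib lists, so this count was largely built in. It says little about the missing DMSO calls. At a common p threshold, chosen after the data had been seen, AREG alone was lost. The 13 members left were 28.9%, beside 32.6% of all protein-coding genes. No fold change between DMSO and palbociclib could be computed or tested, because no member peak was called with DMSO.

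**Figure D3:**
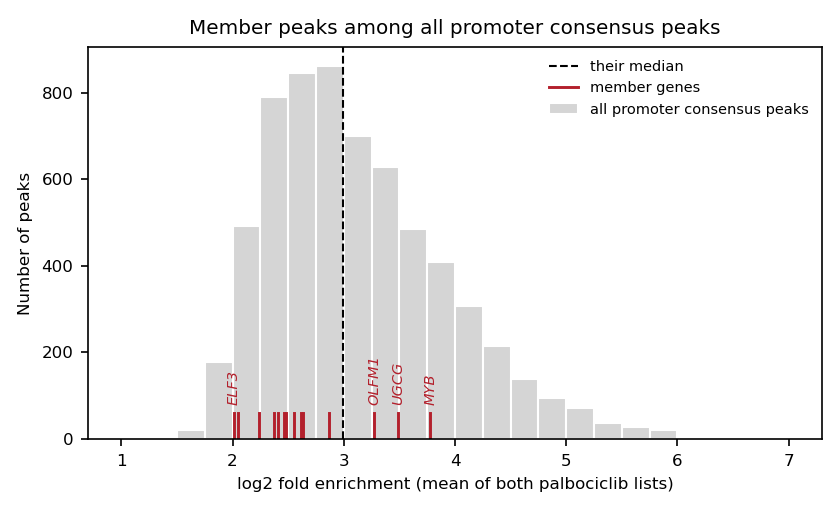
Number of promoter peaks shared by both palbociclib lists (grey bars) by log2 of their mean fold enrichment, with the dashed line at their median (7.97 on the linear scale) and red ticks for the 14 member peaks. Of the red ticks, 3 stand to the right of the median and the tick for MYB is the furthest right.

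Summits in the 2 lists were close to each other, with a median gap of 80 bp for the member promoters. Summits lay within 500 bp of the MANE Select start at 9 of the 14 members (64.3%), beside 85.2% of the 6642 genes with a promoter peak and a MANE Select start. The median distance was 134 bp for members and 157 bp for all such genes. The 5 members beyond 500 bp were the 3 with alternative starts, TPBG and SLC39A6.

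**Figure D4:**
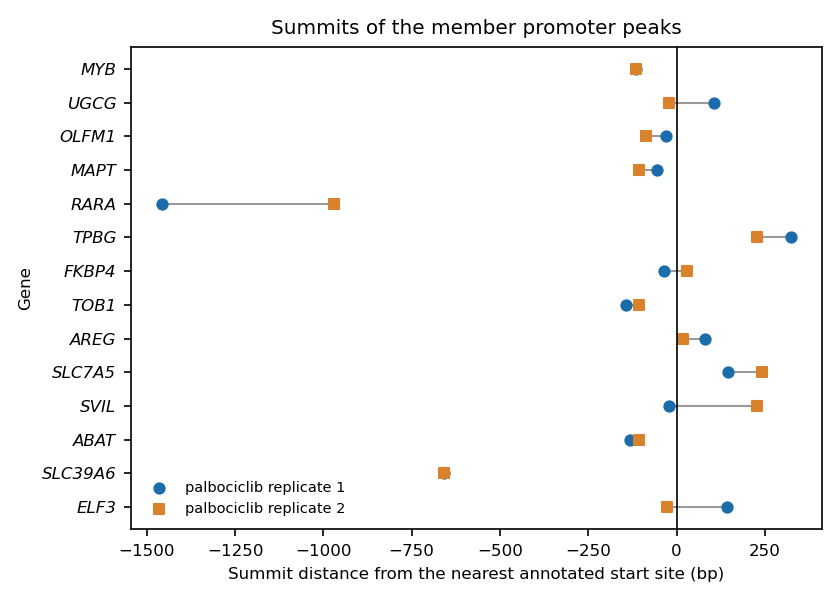
Distance (bp) of each member promoter summit from the nearest annotated start site, negative upstream, as a circle for replicate 1 and a square for replicate 2, with genes ordered by mean fold. All summits except those of RARA (-1456 and -970 bp) and SLC39A6 (-659 and -658 bp) lie between -142 and 323 bp.

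Among the 4 keratin members, only KRT8 was assigned a Rb peak, and it was distal. KRT8, the type II partner of KRT18, had folds of 4.57 and 4.41 in the palbociclib lists, from 8 fragments in each. The peak spanned chr12:52879700-52880088 (hg38) and overlapped no promoter window of any gene. Its summits lay outside the annotated transcripts of KRT8, at 25256 and 25217 bp beyond the MANE Select start, past the 3′ end. Whether the peak lay within the body of another gene was not examined. KRT18, whose start also lay within 100 kb of this peak, had no promoter peak, and its own nearest peak in both palbociclib lists was at the promoter of EIF4B, 56.862 kb away. KRT19 and KRT13, on the type I keratin cluster of chromosome 17, were 160.613 and 183.309 kb from their nearest such peak, which was at the promoter of EIF1. None of the 4 keratins had a peak in a DMSO, RB1 KO or IgG2a list. None of the 11 basal and other cytoskeletal genes listed for comparison (KRT5, KRT6A, KRT6B, KRT14, KRT16, KRT17, KRT7, KRT20, KRT80, KRT81 and VIM) had a peak in any list. Of all protein-coding genes, 34.5% had a promoter peak in both palbociclib lists. No difference between these genes and the keratin members was tested.

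TJP3, the tight junction scaffold ZO-3, had the other distal peak. Its folds were 3.67 and 5.07, from 8 and 12 fragments. The −log10 p of the replicate 1 peak was 4.66, below the weakest call in either DMSO list, 5.23 and 5.33. At its background a DMSO call would have needed 9 fragments, so the absence of TJP3 with DMSO says little. The peak, at chr19:3722627-3722950, lay in an intron at 14293 and 14396 bp from the MANE Select start and 940 and 1043 bp beyond the nearest start of a shorter transcript. Both distal peaks were weak, and neither was kept at a fold of at least 5 or a −log10 q of at least 5. The 201 bases around each distal summit, on the strand of the assigned gene, are printed because these are the non-promoter sites of the set. They are chr12:52879720-52879920 for KRT8 and chr19:3722680-3722880 for TJP3.
KRT8: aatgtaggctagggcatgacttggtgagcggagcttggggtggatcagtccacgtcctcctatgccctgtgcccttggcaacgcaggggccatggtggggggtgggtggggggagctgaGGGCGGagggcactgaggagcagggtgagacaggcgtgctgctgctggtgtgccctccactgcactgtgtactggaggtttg
TJP3: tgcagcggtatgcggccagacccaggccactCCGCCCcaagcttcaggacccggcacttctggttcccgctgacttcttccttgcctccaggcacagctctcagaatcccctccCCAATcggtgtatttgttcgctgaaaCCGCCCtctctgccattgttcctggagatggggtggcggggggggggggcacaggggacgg
Capitals mark GGGCGG or its complement and, in TJP3, CCAAT. Neither window held an ERE with up to 1 mismatch, which was found at 1.30% of the 308 distal peaks in both lists, or the E2F letters, found at 4.87%.

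The 21 members without a palbociclib peak were the secreted proteins TFF1, TFF3, STC2, CXCL12, AGR3, IGFBP4 and PRSS23, the receptor cofactor GREB1, the carbonic anhydrase CA12, the scaffolds PDZK1 and WWC1, the keratins KRT13, KRT18 and KRT19, and CELSR2, ELOVL2, FHL2, HSPB8, RAB31, RHOBTB3 and TIPARP. The nearest peak in both palbociclib lists was a median of 129.696 kb from their start sites, beside 128.65 kb for the 10215 protein-coding genes with no palbociclib peak and a MANE Select start. It was closest for IGFBP4, a binder of insulin-like growth factors, where the TOP2A promoter lay 25.102 kb away, and farthest for WWC1, at 2570 kb. For TFF1 it was 129.696 kb away at the promoters of RSPH1 and SLC37A1. Of the 21, 7 had such a peak within 100 kb (33.3%), beside 43.0% of those genes.

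CpG content was compared because promoter peaks were more frequent at CpG-rich starts. A start was called CpG-rich when CpG observed over expected was at least 0.6 within 500 bp of the MANE Select start. Among all protein-coding genes with such a start, 48.0% of the 12794 CpG-rich and 8.12% of the 6222 CpG-poor genes had a promoter peak in both palbociclib lists. The members were 33 CpG-rich genes, of which 11 had a peak (33.3%), and 12 CpG-poor genes, of which 3 had a peak (25%). The CpG-poor genes with a peak were ELF3, RARA and SVIL, and for RARA and SVIL the peak was at another start than the one scored. CpG-poor genes without a promoter peak in both lists were TFF1, TFF3, GREB1, PDZK1, AGR3, KRT13, HSPB8, KRT8 and TJP3, with ratios from 0.201 for PDZK1 to 0.408 for HSPB8. Another 22 members, KRT18 (0.691) and KRT19 (0.752) among them, were CpG-rich and had no promoter peak in both lists. The part of CpG content in the counts was not tested.

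**Figure D5:**
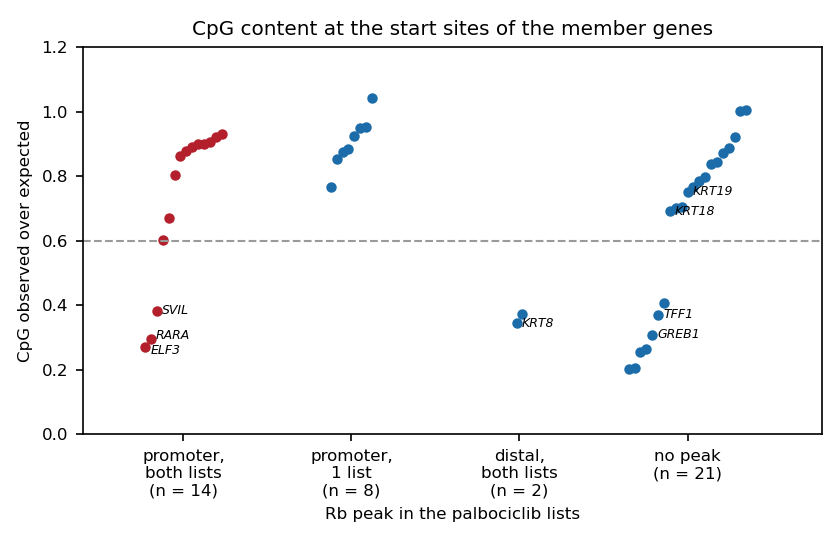
CpG observed over expected within 500 bp of the MANE Select start of each member (points), grouped by its Rb peak in the palbociclib lists, with the dashed line at 0.6. All 8 genes with a promoter peak in 1 list lie above the line, and ELF3, RARA and SVIL are the genes below it with a promoter peak in both lists.

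EREs were sought because they are the direct sites of the oestrogen receptor. The ERE was searched as GGTCA and TGACC separated by 3 bases, with up to 1 mismatch, over the 2000 bp before and 500 bp after the MANE Select start. None of the 14 members with a promoter peak in both palbociclib lists held one, and 7 of the other 31 did (22.6%). Over all genes the shares were 5.92% of those with a peak and 6.56% of those without. At such a share few EREs would be found among 14 genes, so their absence says little. For RARA, OLFM1 and SVIL the searched window was not the one with the Rb peak. The 7 genes were TFF1 (-399 bp), GREB1 (-1505 bp), NRIP1 (-647 bp), KRT13 (-1285 bp), IGFBP4 (288 bp), CELSR2 (314 bp) and TJP3 (426 bp). The members were named as oestrogen-response genes, so a share of EREs above the background was part of how they were chosen. NRIP1 had a peak in replicate 1 whose summit was at 4 bp, away from its ERE. The EREs of the 4 genes in which the site lay upstream are printed on the gene's strand, with the 13 bases of the element in capitals. They lie at chr21:42366908-42366960 for TFF1, chr2:11532514-11532566 for GREB1, chr21:15065621-15065673 for NRIP1 and chr17:41506871-41506923 for KRT13.
TFF1: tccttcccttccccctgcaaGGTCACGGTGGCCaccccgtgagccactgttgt
GREB1: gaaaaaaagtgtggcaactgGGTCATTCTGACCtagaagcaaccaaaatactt
NRIP1: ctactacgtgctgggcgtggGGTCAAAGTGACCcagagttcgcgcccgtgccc
KRT13: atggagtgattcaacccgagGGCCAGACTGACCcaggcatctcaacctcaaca
GREB1 and NRIP1 held the element with no mismatch, which was present in 47 of all 19016 such promoters, and TFF1 and KRT13 with 1 mismatch.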

How the data were processed

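Per the study's methods, trimming used BBDuk and alignment to hg38 used Bowtie2 2.3.4.1. Reads in blacklisted regions or on the mitochondrial genome were discarded and duplicates retained. Each library was then called on its own by the authors, with MACS2 2.2.7.1, an IgG control and a q-value limit of 0.05. The control of the IgG2a list is not given in the sources used here. The deposited lists give each peak's fold enrichment, a ratio over local background, its −log10 p and −log10 q, a score that follows q, and the summit offset. No read totals are in them.

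Groups were taken from the sample titles. Peaks on chromosomes 1 to 22 and X were assigned with GENCODE release 44 (GRCh38). Peaks of replicate lists that overlapped by at least 1 bp formed a shared peak, whose fold in each list was that of its highest peak. The whole-number fragment pileup and background were solved from fold and p under a Poisson distribution. This failed for a few peaks of extreme p in 3 lists, none at a member. Both the pileup and the assignment steps were tested on simulated data. Sequences were read from hg38, and 1 promoter sequence is not reported here. Python 3.11.15, pandas 2.3.3, scipy 1.17.1 and pysam 0.24.0 were used.

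The members and comparison lists were chosen with earlier results of these data known. Every member with a peak is named with its values, and the others are named and counted. Neighbouring coding genes are named where they share a peak or own the nearest one, the last of these chosen after values were seen. Non-coding neighbours are given only for peaks called in both palbociclib lists. No test over members was run, and a share is set beside that of all protein-coding genes. The planned exact permutation test of fold had no peak to run on. The labels do not say whether replicates were separate cultures, and the study describes its CUT&RUN replicates as independent cultures.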

Additional observations from a re-analysis of the deposited data

How the results depend on the processing

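No member was found in the DMSO or RB1 KO lists in any alternative. For DMSO this was fixed in advance, because no alternative could add a promoter peak to lists that held none at a member. The stricter thresholds for RB1 KO could not add one either. These alternatives are therefore no check on the absence. The 14 members with a promoter peak in both palbociclib lists became 7 at a −log10 q of at least 5 (FKBP4, MAPT, MYB, OLFM1, SLC7A5, TOB1 and UGCG) and 7 at a fold of at least 5 (TPBG in place of FKBP4). They became 0 when each list was cut to its best 816 peaks, the length of the shortest, and 22 when 1 list sufficed. In these alternatives the share of members was 15.6%, 15.6%, 0% and 48.9%, beside 26.8%, 27.0%, 3.83% and 43.7% of all genes. Without replicate 1 or 2, the count ranged from 16 (35.6%, beside 39.0% of all genes) to 20 (44.4%, beside 39.6%), so the order of members and all genes turned with the list used. A 50% reciprocal overlap left 10 (22.2%, beside 30.0%). The 2 distal members became 0 at either stricter threshold and in lists of equal length, 1 at the common p threshold added after seeing the data (KRT8 remained; 2.22%, beside 1.31%), and 5 when promoters of protein-coding transcripts alone were used, which added SLC2A1, SVIL and WFS1 (11.1%, beside 3.18% of all genes). In that last alternative, peaks at starts of non-coding transcripts count as distal. The 3 members in the IgG2a list became 1 (FKBP4, 2.22%) at either stricter threshold, beside 1.01% of all genes by q and 3.08% by fold. They became 4 when promoters of protein-coding transcripts alone were used, which added SVIL (8.89%, beside 7.23%). No paired analysis was possible because no member had a peak in a DMSO list. For the same reason the fold comparison and its alternatives were not run.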

Other observations

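A further 40 oestrogen-response genes, listed from general knowledge, included some with a peak in the DMSO lists, where the 45 members had none. Of the 40, 5 (MYC, SFN, MYBL1, SLC1A4 and ABHD2) had a peak in at least 1 DMSO list, beside 6.88% of all genes. Both gene lists were chosen with earlier results of these data known, so how the genes were divided enters this contrast. With palbociclib, 15 of the 40 had an overlapping promoter peak in both lists (37.5%), close to the 34.5% of all genes. At the promoter of MYC, the growth-promoting transcription factor, DMSO gave folds of 7.27 and 5.48, whereas palbociclib gave 12.6 and 11.6. At ABHD2, a lipid hydrolase, the DMSO folds were 5.29 and 6.71 and the palbociclib folds 20.2 and 24.1. In both genes the palbociclib values lay above the DMSO values, but with 2 libraries against 2 no exact test can pass a threshold of 0.05.

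Distal peaks in both palbociclib lists were assigned to 2 of the 40, SFN and CCND1, beside 1.46% of all genes. Their folds were higher than those of KRT8 and TJP3. SFN, the cell cycle inhibitor 14-3-3σ, had distal folds of 8.57 and 10.3 in the DMSO lists, against 26.9 and 21.1 under palbociclib. CCND1, which encodes cyclin D1, had distal folds of 7.63 and 7.94 with palbociclib and none with DMSO. It also had promoter peaks of 3.42 and 3.24 in the palbociclib lists that did not overlap each other, and the IgG2a list also held a distal peak assigned to CCND1, with a fold of 4.63. The progesterone receptor gene PGR, XBP1 and CTSD, which are classical oestrogen targets, had no peak in any list. No difference between the gene lists was tested.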
